A study of Mus musculus with 22 samples.

Results

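The genes described here encode respiratory complex II, complex III, cytochrome c, part of complex IV and the ATP synthase, with assembly factors that share their names. They were taken by name, as the protein-coding genes whose GENCODE M21 symbol starts with Sdha, Sdhb, Sdhc, Sdhd, Uqc or Atp5, plus Cyc1, Cycs, Cox5a, Cox5b, Cox6b1, Cox6c, Cox7b and Cox7c. This gave 45 gene IDs of 54356 annotated, under 44 symbols, on 18 chromosomes. By role they are 4 complex II subunits, 9 complex III subunits, cytochrome c itself, 6 complex IV subunits, 5 subunits of the catalytic F1 head of ATP synthase, 12 IDs for its membrane part Fo and stalk, and 8 assembly factors and other genes. Atp5o has 2 IDs, of which ENSMUSG00000116933.1 had next to no reads and was not tested, so 44 genes were tested in each comparison. One further ATP synthase subunit, now named Atp5md, falls outside the naming rule by its M21 symbol, Usmg5. Symbols of other annotation releases were not read.

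The samples were C57BL/6 mouse hearts at E13.5 (embryonic day), from Prdm16 conditional knockout embryos (cKO) and littermate controls, which the labels also call WT and Mock. Prdm16 encodes a zinc finger transcription factor, and the series asks which genes depend on it in the whole heart and in each ventricle. There were 3 cKO and 3 control libraries of whole heart, 4 cKO and 4 control libraries of left ventricle, and 4 cKO and 4 control libraries of right ventricle, all bulk poly(A) RNA-seq. The Cre driver of the knockout and the number of embryos in a library are not given in the sources used here, and no label ties libraries to embryos, so p-values measure the spread between these libraries.

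Complex II, succinate dehydrogenase, oxidises succinate in the citric acid cycle and passes the electrons to coenzyme Q. Complex III takes them from coenzyme Q to cytochrome c and pumps protons, complex IV passes them from cytochrome c to oxygen, and ATP synthase uses the proton gradient to make ATP. Heart muscle draws most of its ATP from this chain after birth, and its mitochondria mature as the embryonic heart grows. The genes described here lie in the nucleus, while a few partner subunits of complexes III and IV and of ATP synthase are encoded in mitochondrial DNA.

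The whole-heart libraries held 38590751 to 62004017 assigned reads and the ventricle libraries 14508722 to 22830716. Prdm16 checked the labels: it was at 21.6 to 23.4 CPM (reads scaled to effective library size) in left ventricle cKO libraries against 45.4 to 56.2 CPM in controls, and it was lower in every cKO library of each tissue. Cell type markers moved with genotype in the left ventricle. There 6 of 6 ventricular cardiomyocyte markers were lower, at a summed 26520 to 33170 TPM (transcript abundance scaled to library and transcript length) in cKO and 36860 to 39490 TPM in control libraries. Higher were 5 of 6 atrial markers (13800 to 15970 TPM in cKO and 7185 to 8471 TPM in control libraries), 7 of 8 endothelial markers (723.3 to 800.2 TPM in cKO and 575.7 to 628.6 TPM in control libraries) and 5 of 7 epicardial markers (181.8 to 194.8 TPM in cKO and 123.5 to 134.4 TPM in control libraries). Of the other lists, 4 of 6 pan-cardiomyocyte markers were lower, and 1 of 7 mesenchyme, 2 of 5 macrophage and 1 of 8 erythroid markers were higher. The atrial marker Sln was below 1 TPM in every left ventricle cKO library. Right ventricle control 2 stood apart, with a summed mesenchyme marker level of 1361 TPM against 607.5 to 664 TPM in the other 3 right ventricle controls. In bulk samples, fewer cells of a type and less RNA per cell cannot be told apart.

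TPM, which accounts for transcript length, gives the levels of these genes relative to one another. In left ventricle controls, the highest was Atp5b, the catalytic beta subunit, at 2011 ± 188 TPM (SD, n = 4), followed by Cox7b, a small complex IV subunit, at 1823 ± 161 TPM and Atp5g3, a subunit c gene, at 1599 ± 69 TPM. Atp5a1 (alpha subunit, 1127 ± 65.6 TPM), Atp5o (the oligomycin sensitivity protein of the stalk, 1097 ± 59.6 TPM), Atp5k (subunit e, 1094 ± 35.9 TPM) and Uqcrh (the hinge protein of complex III, 1085 ± 47.3 TPM) came next and did not differ from one another beyond their spread. Among the 4 complex II genes, the membrane anchor Sdhc stood at 862 ± 56.5 TPM, while the anchor Sdhd (288 ± 10.3 TPM), the flavoprotein Sdha (273 ± 32.7 TPM) and the iron-sulfur protein Sdhb (241 ± 14.9 TPM) lay close together. Averaged over all libraries, the largest share of Sdhc TPM lay on Sdhc-203, a transcript of only 298 bases. For Cox7b it lay on Cox7b-202, of 180 bases. TPM divides by length, so the ranks of Sdhc and Cox7b depend on how Salmon split reads between transcripts. The electron carriers Cyc1 and Cycs were at 538 ± 19.9 and 428 ± 14.3 TPM. These levels sum all transcripts of a gene, those annotated as non-coding included. Averaged over all libraries, the largest share lay on Cyc1-203, a processed transcript, and on Cycs-201, annotated with a retained intron. The protein-coding Cyc1-201 and Cycs-202 held 23.7% and 7.66% of their genes' TPM in left ventricle controls. The least abundant subunit gene was Uqcrfs1, the Rieske iron-sulfur protein, at 185 ± 7.15 TPM, and every assembly factor was lower than that, down to Sdhaf3 at 2.39 ± 0.197 TPM.

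In the left ventricle, loss of Prdm16 went with a lower level of nearly the whole set. Of 44 genes tested, 39 fell and 0 rose in cKO against control (edgeR quasi-likelihood test, Benjamini-Hochberg adjusted p below 0.05), where 13.4% of all 16448 genes tested fell. The median log2 fold change was -0.38 over these genes and -0.0008 over all genes, and the 39 genes were 1.12 to 1.51 times lower in cKO. At an unadjusted p below 0.05, 0 rose as well, and DESeq2 called 38 lower and 0 higher. The background was 12.3% of all genes for higher calls and 13.2% for lower calls by DESeq2. In 39 of 44 genes every cKO library lay below every control library, as it did for 15.0% of all genes. Together the genes took 1.08 to 1.12% of assigned reads in cKO and 1.41 to 1.52% in control left ventricles. The ventricular, endothelial and epicardial markers above moved in the same libraries, and their part in these differences was not tested.

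**Figure D1:**
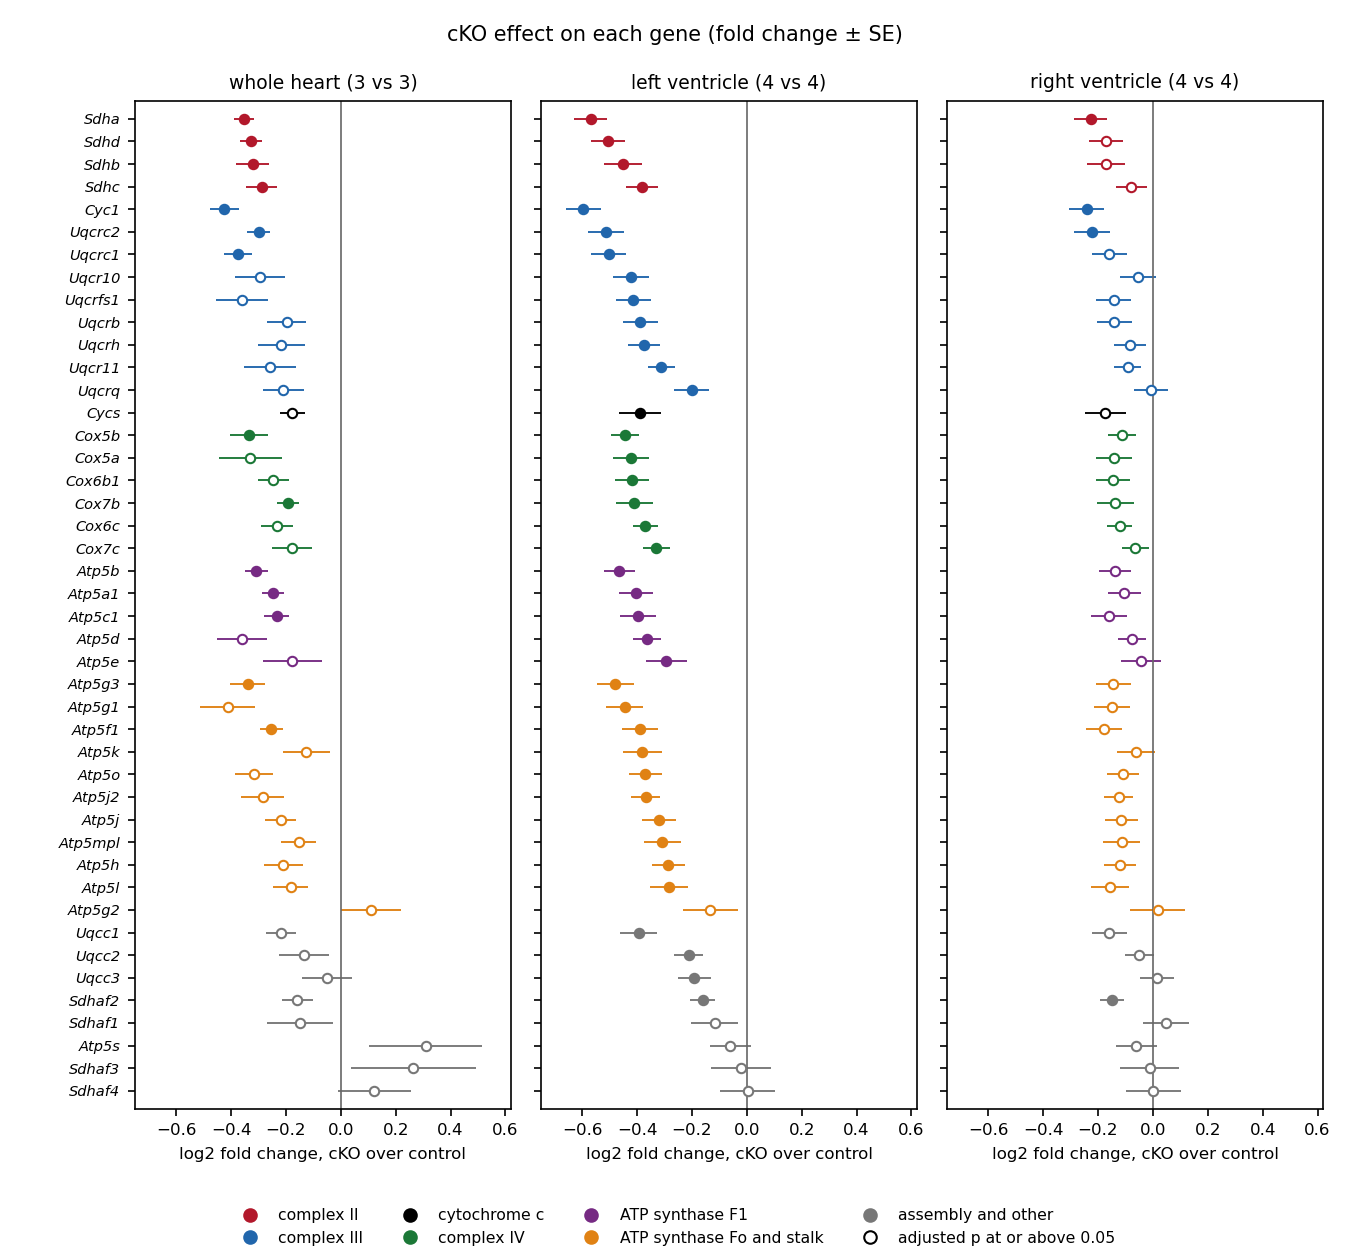
Log2 fold change of cKO over control for each of the 44 tested genes (rows, coloured by complex) in the 3 tissues (panels), with standard errors as bars; open circles mark genes with an adjusted p at or above 0.05. In the left ventricle 39 genes are filled and left of 0, against 14 in the whole heart and 4 in the right ventricle.

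All 4 complex II subunits fell in the left ventricle, with a median log2 fold change of -0.48. Sdha (ENSMUSG00000021577.14, chr13:74322254-74350280 on the minus strand of GRCm38), the catalytic flavoprotein, had 356, 364, 362 and 365 CPM in the 4 cKO libraries, against 561, 539, 537 and 509.5 CPM in control libraries. The cKO libraries sat within a narrow band well below the lowest control (log2 fold change -0.57 ± 0.06 (SE), adjusted p = 3.07e-06). Sdhb, the iron-sulfur subunit, had 167, 170, 168 and 163 CPM in cKO and 248, 227, 224 and 215 CPM in control libraries (log2 fold change -0.45 ± 0.07 (SE), adjusted p = 0.000124). Sdhc, a membrane anchor, had 166, 168, 165 and 175 CPM in cKO and 225, 223, 217 and 213 CPM in control libraries (log2 fold change -0.38 ± 0.06 (SE), adjusted p = 0.000102), a call that was lost with limma on log2(TPM + 1), where its adjusted p was 0.0952 (range over the alternatives 5.67e-09 to 0.0952). Its partner anchor Sdhd had 191, 194, 186 and 193 CPM in cKO and 286, 270.5, 272 and 257 CPM in control libraries (log2 fold change -0.51 ± 0.06 (SE), adjusted p = 1.37e-05). For none of these 4 genes did the groups overlap, and the scatter was smaller among the cKO libraries than among the controls. Summed over the 4 genes, complex II stood at 888 ± 8.87 CPM in cKO and 1256 ± 51.4 CPM in control left ventricles (SD, n = 4 each), a difference of -29.3%. In TPM, whose effective lengths Salmon estimates anew in each library, the same sums were 1332 ± 113 TPM in cKO and 1664 ± 107 TPM in control libraries, a difference of -19.9%.

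All 9 complex III subunits fell as well, with a median log2 fold change of -0.41. Cyc1 (ENSMUSG00000022551.8, chr15:76343523-76346260, plus strand), the cytochrome c1 subunit that hands electrons to cytochrome c, had 204, 216, 206 and 212 CPM in cKO libraries, against 303, 322, 327 and 315 CPM in controls. Its fold change was the largest of the 44 genes in this comparison, and its groups were far apart (log2 fold change -0.60 ± 0.06 (SE), adjusted p = 3.79e-06). The core protein Uqcrc1 had 269, 267, 264 and 270.4 CPM in cKO and 389, 383, 378 and 367 CPM in control libraries (log2 fold change -0.50 ± 0.06 (SE), adjusted p = 2.06e-05). Uqcrfs1 had 159, 162, 160.2 and 165 CPM in cKO and 227, 212, 219 and 203 CPM in control libraries (log2 fold change -0.41 ± 0.06 (SE), adjusted p = 0.000146). The smallest change was that of Uqcrq, a small ubiquinone-binding subunit, with 86.4, 93.2, 91.8 and 85 CPM in cKO and 108, 102, 100.1 and 100.1 CPM in control libraries (log2 fold change -0.20 ± 0.06 (SE), adjusted p = 0.0272). Its groups did not overlap, but they were separated by less than the range within either. Its call was lost when any of 4 single libraries was left out and when transcript lengths were taken into account.

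Cycs, which encodes cytochrome c, the mobile carrier between complexes III and IV, had 156, 176, 166 and 167 CPM in cKO left ventricles, against 233, 226, 214 and 197 CPM in controls. The highest cKO library stayed below the lowest control (log2 fold change -0.39 ± 0.08 (SE), adjusted p = 0.000996). The 6 complex IV subunits all fell, with log2 fold changes between -0.44 and -0.33. Cox5b, a nuclear-encoded zinc-binding subunit, had 189, 191, 188 and 189.7 CPM in cKO libraries, against 266, 251, 258 and 255 CPM in controls. The 4 cKO values were almost equal, and all lay far below every control (log2 fold change -0.44 ± 0.05 (SE), adjusted p = 8.16e-06). Cox7b, an X-linked small subunit, had 171, 172, 169 and 183 CPM in cKO libraries, against 242, 233, 229 and 219.7 CPM in controls (log2 fold change -0.41 ± 0.07 (SE), adjusted p = 0.000269). Again no cKO library reached the lowest control.

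All 5 F1 subunits of ATP synthase fell in the left ventricle (median log2 fold change -0.40). Atp5b had 2151, 2175, 2104 and 2098 CPM in cKO libraries, against 3097, 2928, 2923 and 2824 CPM in controls (log2 fold change -0.47 ± 0.06 (SE), adjusted p = 1.44e-05). Atp5a1 had 1538, 1558, 1558 and 1487 CPM in cKO libraries, against 2143, 2051, 2035 and 1904 CPM in controls (log2 fold change -0.41 ± 0.06 (SE), adjusted p = 0.000118). Both groups were clear of each other for both genes. Atp5e, the small epsilon subunit, moved least of the F1 genes, with 122, 111, 124 and 103 CPM in cKO and 154, 137, 139 and 134 CPM in control libraries (log2 fold change -0.29 ± 0.07 (SE), adjusted p = 0.00731). The summed level of the F1 genes was 4309.7 ± 80.1 CPM in cKO and 5806 ± 237 CPM in control left ventricles, a difference of -25.8% (-21.6% in TPM). Of the 11 tested Fo and stalk genes 10 fell, and their summed level differed by -22.2% (-16.8% in TPM).

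**Figure D2:**
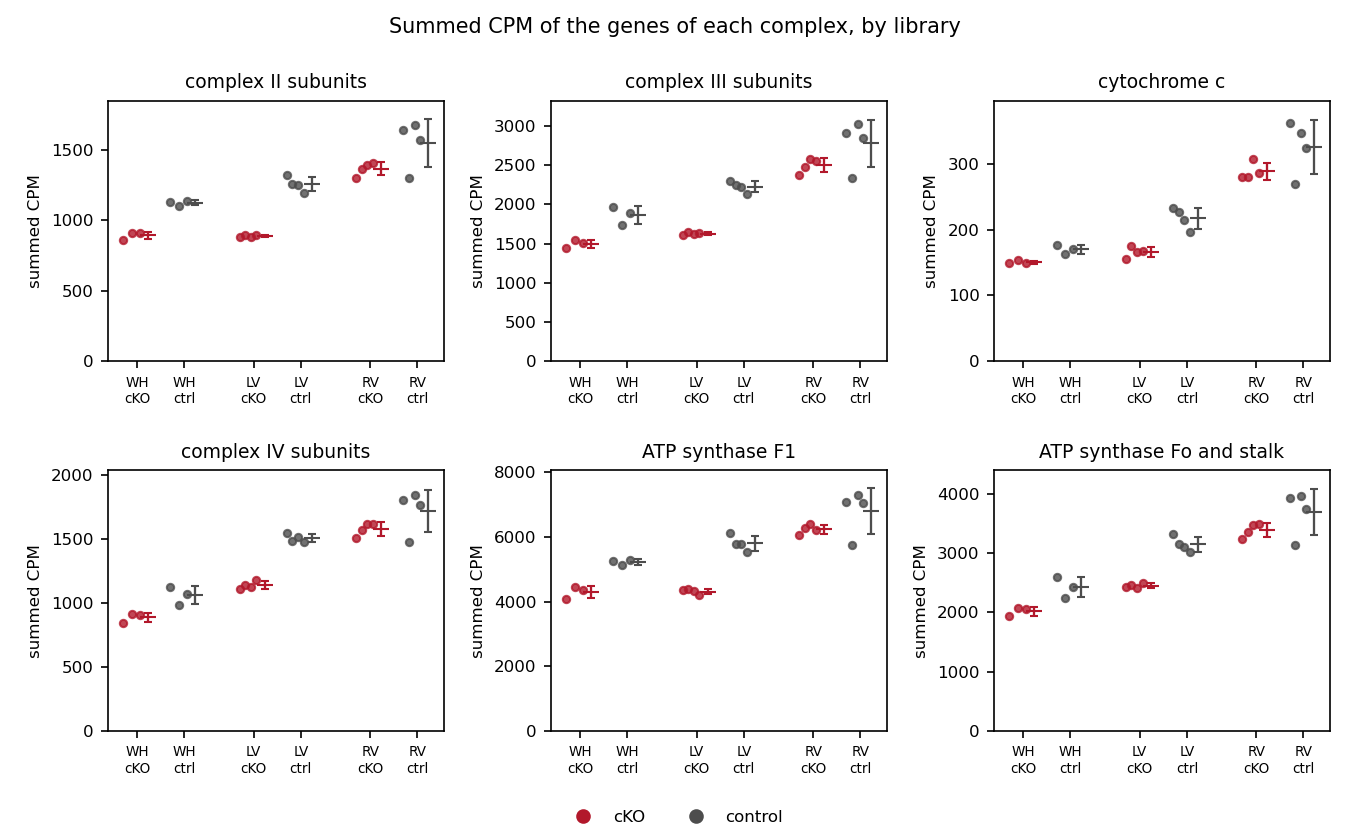
Summed CPM of the genes of each complex (panels) in every library of whole heart (WH), left ventricle (LV) and right ventricle (RV), cKO left of control in each pair; dots are libraries and the bar beside them is the mean ± SD. Whole-heart and ventricle libraries were scaled separately, so levels are compared only within a tissue or between the ventricles. In the left ventricle the complex II sums span 881 to 896 CPM in cKO and 1195 to 1320 CPM in control libraries, while the right ventricle groups overlap.

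The Fo gene that was not called was Atp5g2. Atp5g1, Atp5g2 and Atp5g3 encode the same mature subunit c, the proton-carrying ring of the enzyme, behind different mitochondrial targeting presequences. Atp5g1 (ENSMUSG00000006057.15, chr11:96068852-96075670, minus strand) had 189.8, 189, 188 and 206 CPM in cKO left ventricles, against 261, 270.1, 271 and 252 CPM in controls (log2 fold change -0.45 ± 0.07 (SE), adjusted p = 0.00011). Atp5g3 (ENSMUSG00000018770.9, chr2:73908447-73911326, minus strand) had 464, 469, 449 and 457 CPM in cKO libraries, against 674, 631, 653 and 605 CPM in controls (log2 fold change -0.48 ± 0.07 (SE), adjusted p = 4.41e-05). In both genes all cKO libraries were below all controls. Atp5g2 (ENSMUSG00000062683.11, chr15:102662864-102672352, minus strand) had 161, 214, 182 and 212 CPM in cKO libraries, against 212, 211, 197 and 222 CPM in controls. Its groups overlapped, with 2 cKO libraries at control level and 2 lower (log2 fold change -0.13 ± 0.10 (SE), adjusted p = 0.379). It was not called in the right ventricle (log2 fold change 0.02 ± 0.10 (SE), adjusted p = 0.945) or in the whole heart (log2 fold change 0.11 ± 0.11 (SE), adjusted p = 0.661). Atp5g2 made up 18.6 ± 2.22% of the subunit c TPM in cKO and 15.1 ± 1.19% in control left ventricles (SD, n = 4 each), a difference that did not pass the exact two-sided permutation test (p = 0.0571, adjusted p = 0.257 over 9 shares). The share of Atp5g3 was 57.7 ± 0.893% in cKO and 60.3 ± 1.02% in control left ventricles (exact permutation p = 0.0571, adjusted p = 0.257), and the smallest p that 4 against 4 libraries allow is 0.0286.

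**Figure D3:**
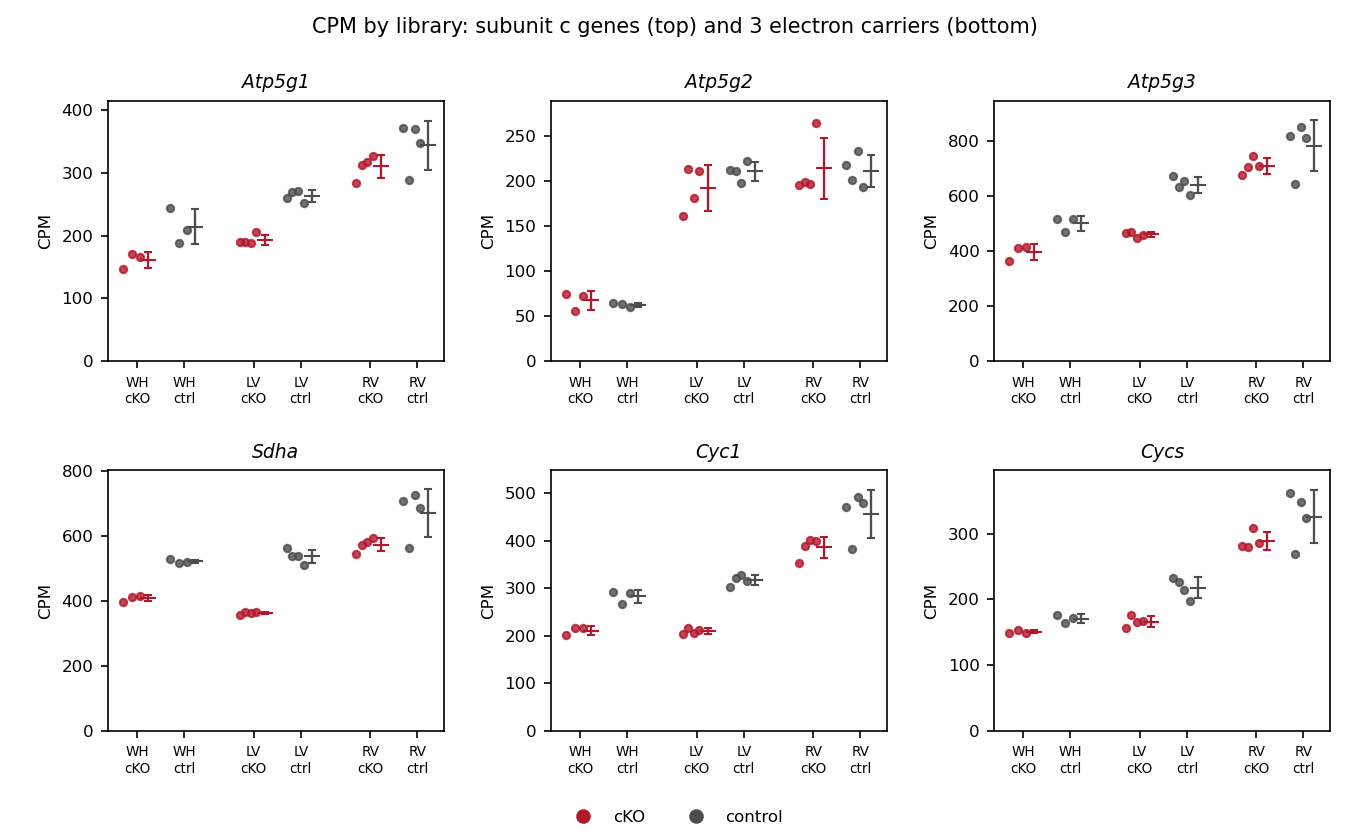
CPM by library for the 3 subunit c genes (top) and for Sdha, Cyc1 and Cycs (bottom), cKO left of control in each tissue; dots are libraries and bars are the mean ± SD. Atp5g1, Atp5g3 and the 3 carriers are lower in every left ventricle cKO library than in any control, while the Atp5g2 groups overlap in all 3 tissues.

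The promoter windows of the 3 subunit c genes are shown because these genes make the same mature protein and only Atp5g2 was not called in the left ventricle. Their shares of the subunit c TPM did not pass after adjustment, so a difference between their changes is not shown. The window of Sdha is given because it holds the most NRF1-type matches of the windows searched. All are RefSeq windows on GRCm38.p6, from 250 bases before to 50 after the annotated start, on the minus strand and written 5′ to 3′. Capitals mark matches on either strand to GCGC, any base, then TGCGC (all 3 matches in Sdha are to the reverse complement), the core letters bound by NRF1, a known activator of respiratory chain genes, and in Atp5g3 also TGACCTT, the reverse complement of AAGGTCA, a site bound by estrogen-related receptors.
Sdha chr13:74350191-74350490: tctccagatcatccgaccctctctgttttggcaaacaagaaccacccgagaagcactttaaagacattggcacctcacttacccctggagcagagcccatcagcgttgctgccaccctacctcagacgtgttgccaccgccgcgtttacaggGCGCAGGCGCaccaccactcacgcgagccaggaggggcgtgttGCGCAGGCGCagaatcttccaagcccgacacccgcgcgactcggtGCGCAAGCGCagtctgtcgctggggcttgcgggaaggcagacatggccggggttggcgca
Atp5g1 chr11:96075582-96075881: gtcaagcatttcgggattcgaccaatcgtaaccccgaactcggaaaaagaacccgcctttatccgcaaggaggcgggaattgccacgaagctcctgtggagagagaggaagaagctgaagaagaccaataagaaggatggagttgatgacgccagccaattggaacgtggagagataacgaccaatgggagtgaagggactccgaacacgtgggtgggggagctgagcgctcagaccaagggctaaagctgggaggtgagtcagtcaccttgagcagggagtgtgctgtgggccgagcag
Atp5g2 chr15:102670998-102671297: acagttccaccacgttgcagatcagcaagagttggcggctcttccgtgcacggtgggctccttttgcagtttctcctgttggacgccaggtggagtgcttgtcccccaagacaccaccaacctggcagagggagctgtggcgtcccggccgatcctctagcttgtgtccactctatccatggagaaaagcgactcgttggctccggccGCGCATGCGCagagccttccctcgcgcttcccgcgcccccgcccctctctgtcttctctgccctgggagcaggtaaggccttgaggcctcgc
Atp5g3 chr2:73911277-73911576: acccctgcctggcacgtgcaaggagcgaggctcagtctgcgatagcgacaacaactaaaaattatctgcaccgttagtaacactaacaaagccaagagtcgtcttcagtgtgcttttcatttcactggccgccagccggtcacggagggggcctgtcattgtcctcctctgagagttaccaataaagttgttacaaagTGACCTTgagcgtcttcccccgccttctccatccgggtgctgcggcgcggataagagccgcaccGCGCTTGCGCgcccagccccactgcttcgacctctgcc
Sdha had 3 NRF1-type matches, at -98, -55 and -10 from the start, Atp5g2 had 1 at -42, Atp5g3 had 1 at 12, and Atp5g1 had none of the 3 motifs searched in its window. Whether a match bears on the change of a gene was not tested.

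RefSeq windows were found for 36 of the 44 symbols, as 39 promoters. Searching both strands, GCGC-N-TGCGC was present in 12 of the 39 (30.8%), against 6.38% of the 21263 promoters of protein-coding genes. CCGGAAG, a core of sites for ETS-family factors, was in 13 (33.3%, against 11.6%), and AAGGTCA in 6 (15.4%, against 4.08%). Within a shorter window of 150 bases the NRF1-type letters were in 11 promoters (28.2%, against 4.87%). No set of letters contains another, and a promoter was counted once for each. These are descriptions of letters and not of binding.

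Of the 8 assembly factors and other genes, 4 fell in the left ventricle and the median log2 fold change was -0.14. Uqcc1, an assembly factor for complex III, had 46.6, 44.4, 46 and 44.1 CPM in cKO libraries, against 62.2, 59.2, 59.8 and 56.8 CPM in controls. The groups did not overlap (log2 fold change -0.39 ± 0.07 (SE), adjusted p = 0.000336), although the call was lost when transcript lengths were taken into account. Sdhaf4, an assembly factor for complex II, had 9.64, 9.35, 10.1 and 9.75 CPM in cKO libraries, against 8.28, 9.93, 9.94 and 10.5 CPM in controls. Its groups overlapped (log2 fold change 0.00 ± 0.10 (SE), adjusted p = 0.991), and Sdhaf1, Sdhaf3 and Atp5s were likewise not called. These 4 are among the genes with the fewest reads, at 24.6 TPM or less in controls.

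In the whole heart, which includes the atria, 14 of the 44 genes fell and 0 rose in cKO (edgeR quasi-likelihood test), where 2.07% of all 19160 genes tested fell. At an unadjusted p below 0.05, 35 were lower and 0 higher, and DESeq2 called 27 lower and 0 higher. Of all genes 1.96% were called higher by edgeR and 5.42% lower by DESeq2. The median log2 fold change was -0.23, against 0.01 over all genes, and 32 genes had every cKO library below every control, as had 12.9% of all genes. The 4 complex II genes all fell here too. Sdha had 397, 412 and 415 CPM in the 3 cKO hearts, against 528, 517 and 519.7 CPM in the 3 control hearts (log2 fold change -0.35 ± 0.04 (SE), adjusted p = 0.00344). Sdhb (log2 fold change -0.32 ± 0.06 (SE), adjusted p = 0.0293), Sdhc (log2 fold change -0.29 ± 0.06 (SE), adjusted p = 0.0341) and Sdhd (log2 fold change -0.33 ± 0.04 (SE), adjusted p = 0.00638) gave slightly smaller changes. Of complex III, Cyc1, Uqcrc1 and Uqcrc2 fell, and Cyc1 had 200.5, 216 and 216 CPM in cKO hearts, against 292, 267 and 290.3 CPM in controls (log2 fold change -0.42 ± 0.05 (SE), adjusted p = 0.00656). The cKO hearts were below every control heart for both genes.

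Of complex IV, Cox5b (-0.33) and Cox7b (-0.19) fell in the whole heart. In the F1 head, Atp5a1, Atp5b and Atp5c1, the alpha, beta and gamma subunits, fell, and Atp5b had 2013, 2207 and 2171 CPM in cKO hearts, against 2662, 2596 and 2654 CPM in controls (log2 fold change -0.31 ± 0.04 (SE), adjusted p = 0.00899). In the Fo and stalk part only Atp5f1 and Atp5g3 passed of the 11 tested, and none of the 8 assembly factors and other genes did by edgeR (smallest adjusted p that of Uqcc1, 0.0763, with a range of 0.0147 to 0.487 over the alternatives). Cycs did not pass by edgeR either, although its groups did not overlap, with 149, 154 and 149.5 CPM in cKO hearts, against 177, 163 and 171 CPM in controls (log2 fold change -0.18 ± 0.05 (SE), adjusted p = 0.09). Atp5g1 had a larger estimate with a wider spread (log2 fold change -0.41 ± 0.10 (SE), adjusted p = 0.0658). DESeq2 called Uqcc1, Cycs and Atp5g1 lower, and over the alternatives the adjusted p was 0.00907 to 0.59 for Cycs and 0.000515 to 0.26 for Atp5g1. Split by transcript length, 11 of 15 subunit genes with a mean length of at least 700 bases fell in the whole heart (median -0.32), and 3 of 21 shorter ones did (median -0.22), a difference that was not tested. In the left ventricle the counts were 14 of 15 longer and 21 of 21 shorter genes.

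The whole-heart counts rested on few libraries. Leaving out any of the 3 cKO hearts or control 3 left 4 to 5 genes lower (0.413 to 0.593% of all genes), leaving out control 1 left 17 (3.25% of all genes) and leaving out control 2 left 19 (2.05%). Control 1 was the highest of the 3 controls for 29 genes and the lowest for 7. On log2(TPM + 1) values with limma, 0 passed in either direction, with 15 lower and 1 higher at an unadjusted p below 0.05. That gene was Uqcc1, whose TPM was 262 ± 21.3 in cKO and 134 ± 100.1 in control hearts (SD, n = 3 each), while its CPM was 53.7, 56.4 and 54.6 in cKO and 67.1, 60.8 and 63.7 in control hearts. The level relative to all mapped reads was thus lower and the length-scaled level higher for the same gene. Ventricular cardiomyocyte markers were lower in cKO hearts (6 of 6, summed 16210 to 17000 TPM, against 19740 to 20620 TPM in controls) and 4 of 6 atrial markers were higher. So were 2 of 8 endothelial markers (609.3 to 688.9 TPM in cKO and 583.6 to 594.3 TPM in control hearts), while 0 of 7 mesenchyme markers passed by edgeR (6 higher at an unadjusted p below 0.05 and 6 by DESeq2), at a summed 2055 to 2338 TPM in cKO and 1753 to 1805 TPM in control hearts. These sums did not overlap between genotypes, and the markers' part in these differences was not tested.

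In the right ventricle, 4 of the 44 genes fell and 0 rose in cKO (edgeR quasi-likelihood test), where 4.19% of all 16448 genes fell. They were Sdha, Cyc1, the core protein gene Uqcrc2 (log2 fold change -0.22 ± 0.06 (SE), adjusted p = 0.0365) and Sdhaf2, which helps assemble complex II (log2 fold change -0.15 ± 0.04 (SE), adjusted p = 0.037). At an unadjusted p below 0.05, 22 were lower and 0 higher, and DESeq2 called 5 lower and 0 higher. Over all genes 6.12% rose by edgeR and 5.06% fell by DESeq2. Sdha had 545, 572, 582 and 593 CPM in cKO right ventricles, against 707, 564, 727 and 685 CPM in controls (log2 fold change -0.23 ± 0.06 (SE), adjusted p = 0.0216). Cyc1 had 353, 389.6, 401 and 399.8 CPM in cKO libraries, against 470, 382, 492 and 479.6 CPM in controls (log2 fold change -0.24 ± 0.06 (SE), adjusted p = 0.0216). For Sdha and Cyc1, 3 controls were above every cKO library and control 2 was among the cKO values. For none of the 44 genes was every cKO library below every control library, against 5.14% of all genes. The median log2 fold change was -0.12, against -0.005 over all genes, and summed over all members the level was 15564 ± 436 CPM in cKO and 17072 ± 1778 CPM in control libraries.

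Right ventricle control 2 was the lowest of the 4 controls for 42 of the 44 genes. Without it, 33 of the 44 genes fell and 0 rose in the right ventricle, where 7.12% of all genes then fell, and the median was -0.19. In 34 genes every cKO library then lay below the 3 remaining controls, as it did for 11.4% of all genes. Control 2 is set apart here because it was low for these same genes. Leaving it out raises their counts partly through that choice, which was not made on all genes. The counts without it are thus a description and no further evidence of a fall. By role, 4 of 4 complex II, 7 of 9 complex III, 6 of 6 complex IV, 4 of 5 F1 and 9 of 11 Fo and stalk genes fell, with cytochrome c, and 2 of the 8 assembly factors and other genes. The log2 fold change was then -0.30 (adjusted p = 3.25e-05) for Sdha, -0.32 (adjusted p = 8.21e-05) for Cyc1, -0.21 (adjusted p = 0.000506) for Atp5b and -0.25 (adjusted p = 0.00562) for Cycs. Over all alternatives the adjusted p ranged over 3.25e-05 to 0.252 for Sdha, 8.21e-05 to 0.12 for Cyc1, 0.000506 to 0.476 for Atp5b and 0.00562 to 0.538 for Cycs. Leaving out control 1, 3 or 4 or cKO 1 in its place left 0 genes called (2.91 to 3.22% of all genes), with 5 to 11 at an unadjusted p below 0.05. Leaving out cKO 2 or 4 left 2 (2.83% and 3.12% of all genes) and cKO 3 left 4 (3.07%). The summed mesenchyme markers were at 609.6 to 756.9 TPM in cKO libraries, and the part of the mesenchyme level of control 2 in its low values was not tested. With all 4 controls in the fit, 0 of 6 ventricular cardiomyocyte markers were called in the right ventricle (2 lower at an unadjusted p below 0.05, 1 lower by DESeq2), at a summed 35620 to 40820 TPM in cKO and 35090 to 40960 TPM in control libraries. The lowest of these control sums was that of control 2, against 40040 to 40960 TPM in the 3 remaining controls. Its pan-cardiomyocyte sum was also the lowest, at 19290 TPM against 20910 to 21580 TPM in those controls and 20660 to 22570 TPM in cKO libraries. Marker calls are given only with all 4 controls, so they are not set beside the gene counts without control 2. Higher in cKO were 4 of 6 atrial markers, at a summed 9051 to 11150 TPM in cKO and 5814 to 6748 TPM in control libraries, 4 of 8 erythroid markers, 1 of 7 epicardial markers and 2 of 8 endothelial markers (7 at an unadjusted p below 0.05, 3 by DESeq2), the last at 615.1 to 637.5 TPM in cKO and 547.3 to 598.5 TPM in control libraries, and their part was not tested.

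**Figure D4:**
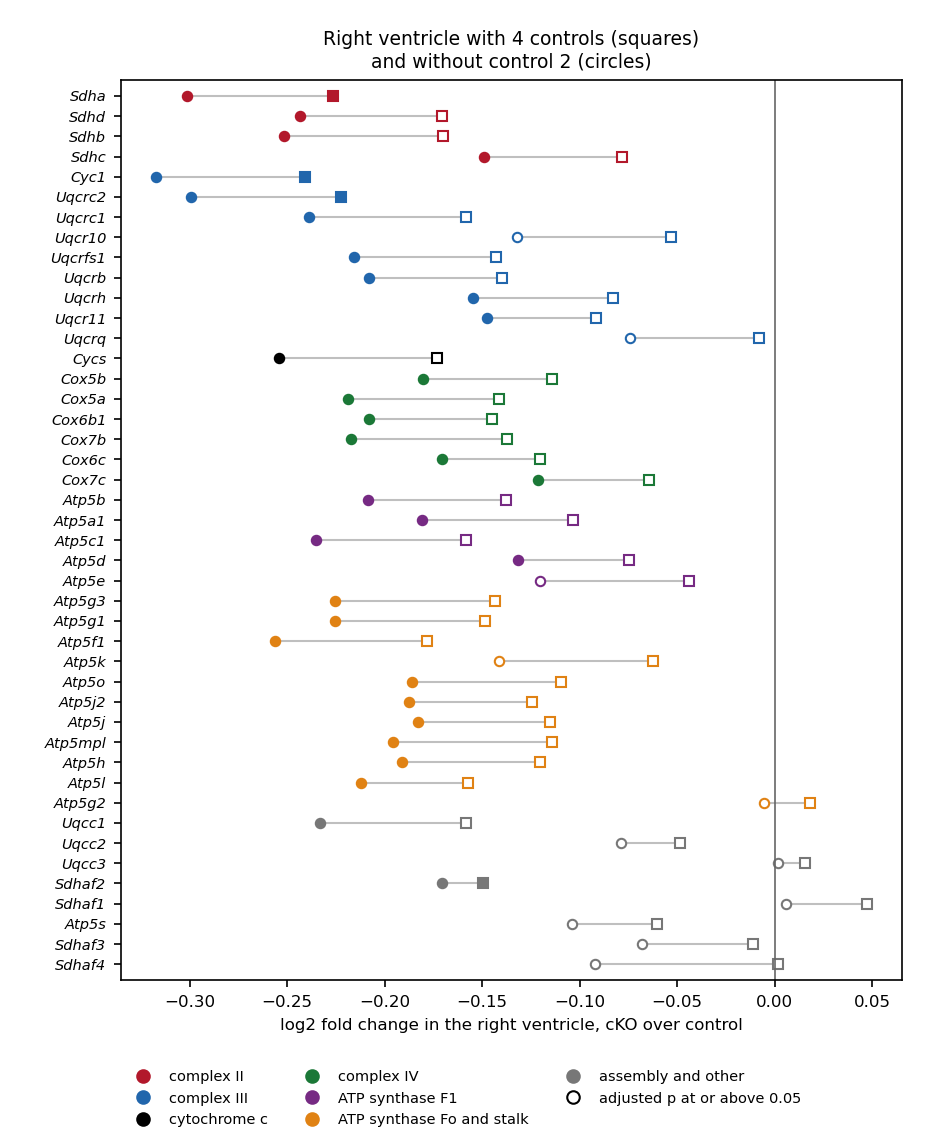
Log2 fold change of cKO over control in the right ventricle for each gene, with all 4 controls (squares) and without control 2 (circles); filled symbols have an adjusted p below 0.05 and colours give the complex. Most genes move further below 0 without control 2, and the number of filled symbols goes to 33 without it, against 4 with it. Control 2 was the lowest of the 4 controls for 42 of the 44 genes.

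The change in the left ventricle was set against that in the right in one model. The difference, left minus right, was below 0 for 42 of 44 genes, with a median of -0.25 on the log2 scale against -0.0007 over all genes. At an unadjusted p below 0.05, 34 genes were lower and 0 higher, but after adjustment 1 gene passed, Cox5b, where 0.973% of all genes passed in that direction. By edgeR 0.462% of all genes were higher. DESeq2 called 14 lower (2.27% of all genes) and 0 higher. Cox5b had 267, 274, 284 and 279 CPM in cKO right ventricles, against 306, 257, 315 and 318 CPM in controls, which were wider and overlapped (log2 fold change -0.11 ± 0.05 (SE), adjusted p = 0.188). Its left minus right difference was -0.33 ± 0.07 (SE, adjusted p = 0.0325), and over the alternatives its adjusted p ranged over 0.00252 to 0.755. Sdha (-0.34, adjusted p = 0.0545), Atp5b (-0.33, 0.0534) and Cyc1 (-0.36, 0.0607) came close to the threshold without passing it. Of 6 ventricular cardiomyocyte markers all were below 0 in the same difference (median -0.35, 2 called, 6 at an unadjusted p below 0.05, 5 by DESeq2), as were all 6 pan-cardiomyocyte markers (0 called, 3 unadjusted, 2 by DESeq2), and their part was not tested.

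Without right ventricle control 2, 15 genes passed in the difference (1.42% of all genes), although the median was smaller, at -0.19. They were 3 of complex II (Sdha, Sdhc and Sdhd), 4 of complex III (Cyc1, Uqcrc1, Uqcr10 and Uqcrh), 3 of complex IV (Cox5b, Cox6c and Cox7c), 3 of F1 (Atp5a1, Atp5b and Atp5d) and 2 of the Fo and stalk part (Atp5g3 and Atp5o). Without right ventricle control 1, 3 or 4, the counts were 5 (1.06% of all genes), 9 (1.01%) and 2 (1.1%), and without cKO 1 the count was 3 (0.894%). Leaving out any single left ventricle library, or right ventricle cKO 2, 3 or 4, left 0 called (0.485 to 0.672% of all genes), with 28 to 36 at an unadjusted p below 0.05. The sign was below 0 for 40 to 44 of the 44 genes in each of these fits, while the calls depended on single libraries.

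Across the 36 tested subunit genes, with cytochrome c, the log2 fold changes of the left ventricle and of the whole heart had a Pearson correlation of 0.777 (Spearman 0.706), and those of the left and right ventricles 0.788 (0.673). Genes are not independent replicates, the ventricles share one fit, and the right ventricle against the whole heart gave 0.587 (0.453). The 5 genes at or below -0.50 in the left ventricle (Cyc1, Sdha, Uqcrc2, Sdhd and Uqcrc1) had -0.42, -0.35, -0.30, -0.33 and -0.37 in the whole heart and all fell there. Uqcrq and Atp5e, the genes with the smallest left ventricle changes of complex III and F1, had -0.01 and -0.04 in the right ventricle, with neither called.

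The ventricles also differed from each other within each genotype. In cKO hearts 39 of the 44 genes had less RNA in the left ventricle than the right, where 18.3% of all genes were, and in control hearts 28 were lower, where 12.0% were (edgeR quasi-likelihood test). In cKO and in control hearts, 0 genes were higher in the left ventricle, where 14.5% of all genes were in cKO and 9.02% in control hearts. The control count moved with transcript length: length-scaled counts gave 12 lower and 1 higher, and limma on log2(TPM + 1) 9 lower and 1 higher, the higher gene being Atp5s in both. At an unadjusted p below 0.05, 39 were lower and 0 higher in cKO hearts, and 36 lower and 1 higher in control hearts. DESeq2 called 39 lower in cKO (17.1% of all genes) and 34 lower in control hearts (12.5%), with 0 higher. The medians were -0.46 in cKO and -0.20 in control hearts. These comparisons share libraries with the cKO comparisons above, so they are not independent of them, and the change in this gap between genotypes is the difference tested above.

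Cycs and Cyc1 had the largest differences between the ventricles. Cycs was lower in the left ventricle by a log2 fold change of -0.80 ± 0.08 (SE, adjusted p = 9.88e-07) in cKO hearts and -0.58 ± 0.07 (adjusted p = 4.86e-05) in control hearts. Its right ventricle level was 281, 280.5, 308 and 286 CPM in cKO and 362, 269.7, 348 and 324 CPM in control libraries, all above every left ventricle library of either genotype. Cyc1 was lower by -0.88 ± 0.06 (adjusted p = 7.21e-08) in cKO hearts and by -0.53 ± 0.06 (adjusted p = 2.68e-05) in control hearts. In control hearts the complexes differed in how many genes were called, with 4 of 4 for complex II, 8 of 9 for complex III, 2 of 6 for complex IV, 3 of 5 for F1 and 7 of 11 for Fo and stalk. Whether these shares differ between complexes was not tested. Without right ventricle control 2 the control count was 38 (14.8% of all genes) with a median of -0.28, and 6 of 6 complex IV genes were called. That library was the lowest right ventricle control for 42 of the 44 genes, so leaving it out widens this gap by choice. Beside this, 4 of 6 pan-cardiomyocyte markers were lower in the left ventricle than the right in controls (median -0.35) and 5 of 6 in cKO hearts (median -0.54), and 2 of 6 ventricular markers were lower in controls and 6 of 6 in cKO hearts. In cKO hearts 5 of 8 endothelial, 5 of 7 epicardial, 4 of 7 mesenchyme and 4 of 5 macrophage markers were higher in the left ventricle, against 1, 1, 0 (0 unadjusted, 0 by DESeq2) and 1 in control hearts. Their part in the difference was not tested.

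**Figure D5:**
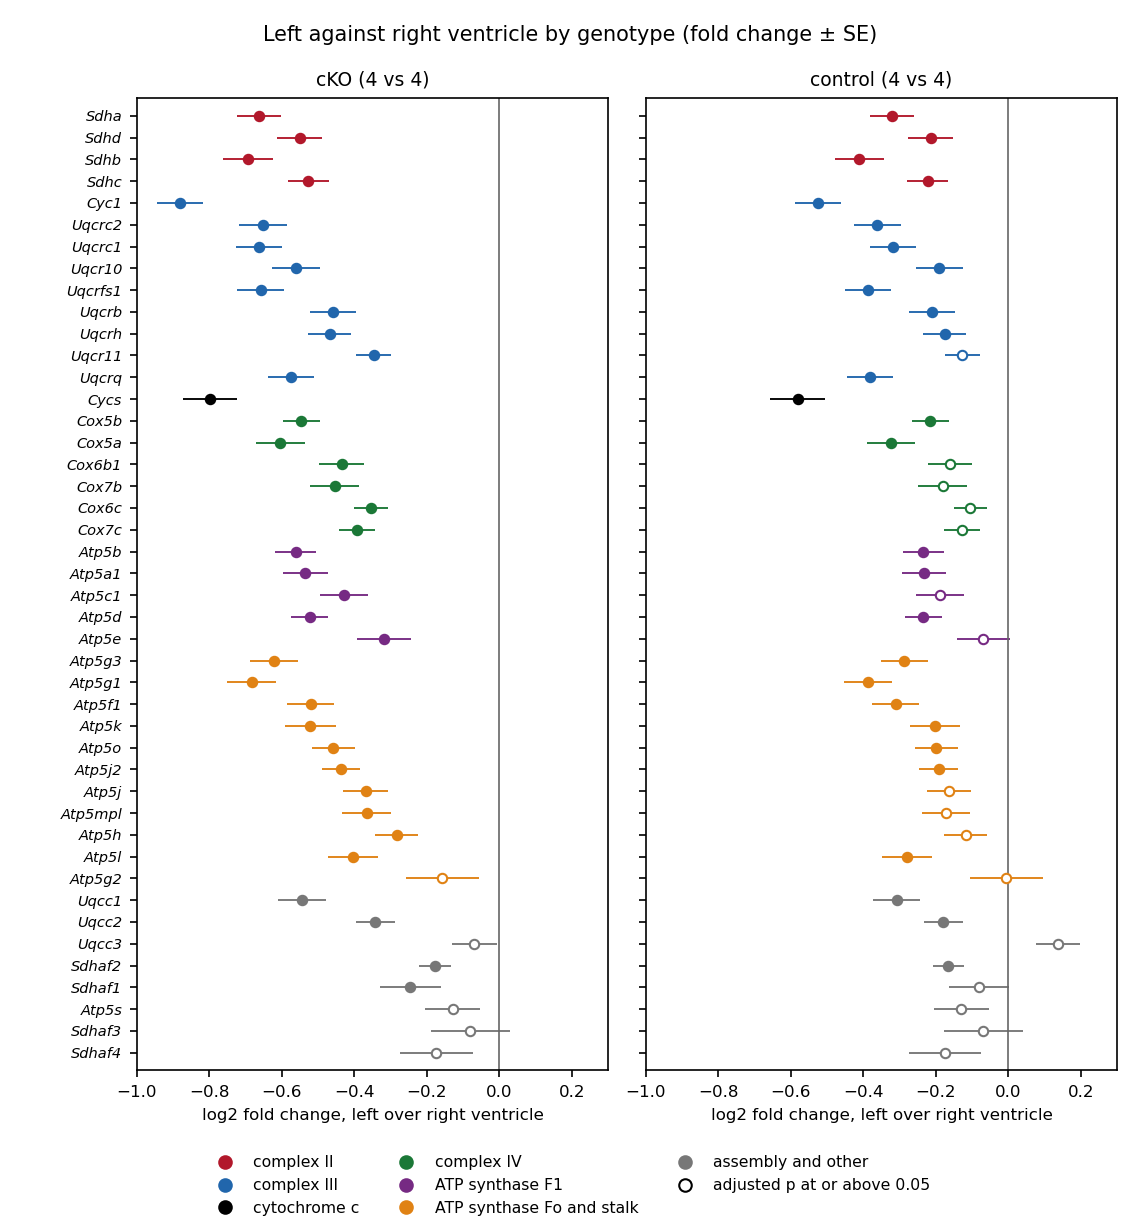
Log2 fold change of left over right ventricle for each gene in cKO hearts (left panel) and control hearts (right panel), with standard errors as bars; open circles mark an adjusted p at or above 0.05 and colours give the complex. In cKO hearts 39 genes are filled and below 0, with Cyc1 and Cycs farthest, against 28 in control hearts.

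Isoform shares were compared for the 21 genes whose second most abundant transcript held at least 10% of the gene's TPM on average over all 22 libraries, although for 4 of them in the left and 3 in the right ventricle it held less than 10% there. In the left ventricle 1 of 21 reached an unadjusted exact permutation p below 0.05 and 0 passed after adjustment. Transcript Atp5c1-203 held 35.8 ± 3.87% of the TPM of its gene in cKO, against 29.8 ± 1.17% in control left ventricles (SD, n = 4 each, exact two-sided p = 0.0286, adjusted p = 0.6). In the right ventricle 0 of 21 reached that level, before or after adjustment (smallest p 0.0857). Ranked and filtered within each ventricle, a choice made after seeing the data, 19 genes were tested in the left and 18 in the right ventricle, and again 0 passed after adjustment, with Atp5c1 (adjusted p = 0.543) the 1 gene below 0.05 unadjusted. The split of reads between isoforms that share most of their sequence is an estimate of the counting program.

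Genes that work with these complexes were read from lists drawn up from textbook roles. Of 6 mitochondrially encoded subunits of complexes III, IV and V, 5 fell in the left ventricle (median -0.23), led by mt-Co2 (-0.39), against 1 in the right ventricle and 0 in the whole heart (edgeR, with 0 at an unadjusted p below 0.05 and 0 by DESeq2). Of 6 genes for ATP synthase assembly or regulation, 5 fell in the left ventricle (median -0.30). Fmc1, an assembly factor of the F1 head in yeast, fell most (log2 fold change -0.62 ± 0.05 (SE), adjusted p = 3.53e-07) and also passed in the left minus right difference (-0.45, adjusted p = 0.00602). Tmem70, which helps build the subunit c ring, followed (-0.36), then Atpif1, the inhibitor of the hydrolytic reaction (-0.32). Of these 6 genes 1 fell in the right ventricle and 0 in the whole heart (4 lower at an unadjusted p below 0.05, 2 by DESeq2).

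Upstream of complex III, 11 of 13 genes of coenzyme Q synthesis fell in the left ventricle (median -0.35), among them Coq9 (-0.43), Coq7 (-0.38) and Pdss1 (-0.46), against 0 in the right ventricle (4 at an unadjusted p below 0.05, 0 by DESeq2) and 1 in the whole heart. Of 7 tested genes of other dehydrogenases that feed electrons to coenzyme Q, 5 fell, including Gpd2, the mitochondrial glycerol phosphate dehydrogenase (-0.50), and the electron transfer flavoprotein genes Etfa (-0.49) and Etfdh (-0.40), against 2 in the right ventricle and 0 of 8 in the whole heart (4 at an unadjusted p below 0.05, 4 by DESeq2). Of 20 assembly factors for cytochrome c and complex IV, 9 fell in the left ventricle (median -0.20), 1 in the right ventricle and 2 in the whole heart. Of 3 complex III assembly factors outside the naming rule, only Lyrm7 passed in the left ventricle (-0.32), and 0 passed in the right ventricle (0 unadjusted, 0 by DESeq2) or the whole heart (1 unadjusted, 0 by DESeq2).

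Carriers that bring in phosphate and exchange ATP fell in 5 of 7 cases in the left ventricle, among them the phosphate carrier Slc25a3 (-0.34) and the ADP/ATP carrier Slc25a4 (-0.33), against 2 in the right ventricle and 4 in the whole heart. Of 9 tested genes for cristae structure 7 fell, led by Samm50 (-0.42) and Immt (-0.41), against 4 in the right ventricle and 3 in the whole heart. Usmg5, the ATP synthase subunit outside the naming rule, fell in the left ventricle (log2 fold change -0.33 ± 0.07 (SE), adjusted p = 0.00198) and had -0.21 in the right ventricle and -0.20 in the whole heart without passing by edgeR, although DESeq2 called it lower in the right ventricle.

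Other groups of mitochondrial and ribosomal genes place these values. In the left ventricle 31 of 37 nuclear complex I subunits fell (median -0.33) and 49 of 78 mitochondrial ribosomal proteins fell (median -0.18), against 18 of 77 cytosolic ribosomal proteins (median -0.10). In the right ventricle 5 complex I and 4 mitochondrial ribosomal genes fell, the second a share near the 4.19% of all genes, while 1 mitochondrial and 2 cytosolic ribosomal genes were higher. In the whole heart 5 complex I and 4 mitochondrial ribosomal genes fell by edgeR, against a background of 2.07%, and 22 and 13 by DESeq2 (26 and 33 at an unadjusted p below 0.05). Beside these stand the medians of complex II (-0.48), complex III (-0.41), F1 (-0.40), the Fo and stalk part (-0.37) and the 8 assembly factors and other genes (-0.14), and none of the differences between groups was tested. Of 13 transcriptional regulators of mitochondrial genes, 7 fell in the left ventricle, 5 in the right ventricle and 3 in the whole heart. Among them were Ppargc1b (-0.72), Perm1 (-1.74) and the estrogen-related receptor gene Esrra (-0.40) in the left ventricle.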

How the data were processed

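Per the labels' protocols, strand-specific poly(A) libraries (TruSeq) of mouse embryonic heart RNA were read on a HiSeq instrument. The authors deposited Salmon 1.2.1 tables with estimated counts (NumReads), TPM and effective lengths (in bases) per transcript, and DESeq2 1.22.2 and the builds GRCm38.p6 and mm10 are named per the submitters' processing notes. Transcripts were summed per GENCODE M21 gene, and transcripts without a match held 0.138 to 0.204% of reads. Counts were rounded, filtered with filterByExpr, scaled by TMM and tested with edgeR 4.0.16 in R 4.3.3, with one model for the 6 whole hearts and another for the 16 libraries of the ventricles, each with a mean per group. The standard error (SE) of an edgeR log2 fold change was derived as its absolute value divided by the square root of the quasi-likelihood F statistic. Per-library levels are TMM-scaled CPM, and levels of different genes are compared only in TPM. Reads were not used here, and the precision of each value is limited by the number of libraries.

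The common biological coefficient of variation was 0.184 in whole hearts and 0.0929 in ventricles. Genes, gene lists and settings were chosen with earlier results of these data known. Values per library are given for fixed subunits (complex II, the electron carriers, the F1 core and subunit c), the smallest and largest p of each complex in the left ventricle, and genes passing in the left minus right difference. Alternatives were RLE factors, library totals, no filter, limma 3.58.1 (voom, and log2(TPM + 1)), DESeq2 1.42.0, length-scaled counts, a replicate block and leaving out each library. The subunit c shares, the ranking of isoforms within a ventricle, the split at 700 bases and the counts of non-overlapping groups without a library were added after seeing the data. The fits were tested on simulated data with 200 genes changed. Promoter windows are RefSeq (GRCm38.p6). Pseudogenes sharing names with these genes held few reads, and adding them changed each count by at most 1.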

Additional observations from a re-analysis of the deposited data

Results flagged for a closer look

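In 112 groups of 4 libraries, one for each named gene or complex and ventricle group, the distance of the highest or lowest library to its neighbour was set against the range of the group by Dixon's ratio at the 95% level, and chance alone marks about 1 in 20 groups. The groups marked are only those whose outlying library is named below, which is no more than that rate gives. Right ventricle control 2 was far below the other 3 controls for Atp5a1 (1998 CPM), for Atp5e (124 CPM) and for the summed F1 genes of ATP synthase (5744 CPM). That sum includes Atp5a1 and Atp5e, so it is not a separate case. Control 2 also held the highest mesenchyme marker sum and the lowest ventricular and pan-cardiomyocyte marker sums of the right ventricle libraries. Left ventricle cKO 4 was the highest of its group for Atp5g1 (205.8 CPM), although still below every control. Right ventricle cKO 4 was the highest of its group for Atp5g2 (264.9 CPM), above all 4 controls as well. The change of Cox5b in the left ventricle differed from that in the right, by -0.33 on the log2 scale, in the test of the difference itself.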

How the results depend on the processing

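The left ventricle count of lower genes (39 of 44) stayed within 30 to 39 over all settings tried, with 37 to 39 when single libraries were left out, and the cKO left against right count (39) within 29 to 39 (38 to 39). Other counts moved. In the whole heart (14), length-scaled counts gave 2, DESeq2 27 and limma on log2(TPM + 1) 0, and leaving out single libraries gave 4 to 19. In the right ventricle (4), length-scaled counts gave 1, log2(TPM + 1) gave 2, the 2 groups fitted alone 0 (7 at an unadjusted p below 0.05), and leaving out single libraries 0 to 33. For the left minus right difference (1), library totals gave 9, no filter 3, voom 2, leaving out haemoglobin and mitochondrial genes 2, length-scaled counts 0 (24 unadjusted), DESeq2 14, log2(TPM + 1) 0 (18 unadjusted), and leaving out single libraries 0 to 15. For left against right in controls (28), length-scaled counts gave 13 (12 lower and Atp5s higher), log2(TPM + 1) 10 (9 lower and Atp5s higher), the 2 groups fitted alone 18, and leaving out single libraries 20 to 38. The ratio of summed levels over the 45 genes described, cKO over control, was 0.904 in TPM and 0.823 in CPM for the whole heart, and 0.81 in TPM and 0.749 in CPM for the left ventricle. Directions held in these counts' medians, but not everywhere: Atp5s, left against right in controls, was -0.13 and not called, against a higher call with length-scaled counts and log2(TPM + 1), and the summed assembly factors and other genes had a whole-heart ratio of 0.927 in CPM and 1.401 in TPM. Those sums were 474 ± 23.2 TPM in cKO and 338 ± 104 TPM in control hearts, and most of the difference lay in Uqcc1, whose TPM is given above. Isoform shares passing after adjustment stayed at 0 under every minimum share and within each ventricle. The causes were not tested. Where no share of all genes is given for a setting, its count has no background beside it. Such a count may move with the calls over all genes.

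Replicate numbers are shared between groups, but same-number libraries correlated by only -0.116 to 0.237, so the numbers were not taken as pairs. With a replicate block, 1 gene was called in the whole heart, 39 in the left ventricle, 3 in the right ventricle, 2 in the left minus right difference, and 29 in controls and 39 in cKO hearts for left against right. The share of all genes called with the block is not given, so these counts have no background beside them.

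With 3 or 4 libraries a group, standard errors of single genes in the left ventricle were 0.04 to 0.11 on the log2 scale. The median right ventricle change was -0.12.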

Other observations

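The share of Atp5g2 in the subunit c TPM of a library was 8.04 ± 1.57% in cKO and 5.94 ± 0.403% in control whole hearts (SD, n = 3 each), against 13.7 ± 1.94% in cKO and 12.6 ± 1.34% in control right ventricles (SD, n = 4 each). The share of Atp5g3 was 67.9 ± 0.50% in cKO and 67.3 ± 3.41% in control whole hearts, against 59.3 ± 1.60% in cKO and 61.1 ± 0.858% in control right ventricles. These are shares within each library, and no test was run between whole hearts and ventricles.

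Mitochondrially encoded protein genes took 5.21 to 5.78% of reads in cKO and 6.15 to 6.72% in control left ventricles, and 5.49 to 6.29% in cKO and 6.45 to 7.19% in control right ventricles. In the right ventricle these groups did not overlap, although none of the 44 nuclear genes above had that property there. In whole hearts the shares were 4.99 to 5.57% in cKO and 4.56 to 5.79% in control libraries, and overlapped. Haemoglobin genes took 1.13 to 2.24% of reads in cKO and 0.509 to 1.24% in control right ventricles.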
